A study of Homo sapiens with 2 samples.

Results

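Membrane transporter genes, those of the solute carriers (SLC), the ABC and P-type ATPase pumps, the TRPM, TRPV, TRPC and KCN (other than KCNQ) channels and the TMEM- and TMCO-named membrane proteins, were followed through the RNAs recovered with a catenin immunoprecipitation (IP). Membership was decided by gene symbol, and the symbols to match were chosen with earlier results of these data known. Of the 1658 gene symbols with a listed peak, 32 matched, with 39 peaks among the 2440 peaks left when each symbol was represented by its transcript with the most tags. The study compared a catenin IP library (1 sample; the title writes B-catenin) with an input library (1 sample), both from the human cell line MDA-MB-231, which is established from a triple-negative breast cancer and mesenchymal in type, with no treatment named. Before sequencing, RNA was sheared to 300 to 500 bp. The input library alone was not analysed here, so each value below describes 1 IP library without replicate error.

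Solute carriers move amino acids, metals, nucleotides and other solutes down or against gradients, often coupled to sodium or proton flow. P-type ATPases spend ATP to pump ions or to flip lipids between the leaflets of a membrane. ABC transporters use ATP to export drugs and metabolites, and TRP and KCN proteins are ion channels. SLC25 carriers sit in mitochondria, while most of the others are made on the endoplasmic reticulum and work there, in the Golgi apparatus or at the plasma membrane. The values below are those of their messenger RNAs, not of the proteins.

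A tag is a sequenced fragment counted in a peak, and the tags of all peaks on a gene's transcript were added up. The fold is the enrichment that the authors' peak caller gave to a peak, and a gene's fold is that of its highest peak. Peaks carried 11 to 3078 tags over all genes, and how deep the library was sequenced is unknown. The table lists only regions that passed the authors' threshold, so a gene without a peak is not shown to be absent from the IP. As a check of the cell line, 4 of 10 mesenchymal and basal breast cancer markers had a peak (FN1, EGFR, MSN and ZEB1), against 0 of 8 markers of luminal epithelium and 0 of 6 of immune or blood cells. VIM, the defining mesenchymal marker, had no listed peak. Since 8.11% of all protein-coding symbols had a peak, and the exact binomial intervals for 0 of 8 and 0 of 6 reach 36.9% and 45.9%, lists of this size could hold no peak by their size alone.

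P-type ATPase genes had a listed peak more often than the average protein-coding gene, and the other transporter families lay below that average. Peaks were listed for 8 of the 34 protein-coding RefSeq symbols that the choice by symbol takes as ATPases (it leaves some ATPase symbols out), which is 23.5% (exact binomial interval 10.7 to 41.2%). Over all 20056 protein-coding symbols the share was 8.11%. Solute carriers had a peak in 14 of 386 cases, or 3.63% (1.997 to 6.01%), and TMEM symbols in 6 of 233, or 2.58% (0.951 to 5.52%). ABC transporters had a peak in 2 of 41 cases, or 4.88% (0.596 to 16.5%), and TRP channels in 1 of 22, or 4.55% (0.115 to 22.8%). The intervals of these small families overlap that of the ATPases and contain 8.11%, so their place below the ATPases and the average is within counting error. None of 91 KCN symbols (KCNQ channels left out) and none of 5 TMCO symbols was listed. Over the whole set the share was 31 of 812, or 3.82% (2.61 to 5.38%), with TMEM57 left out because its current symbol is MACO1. Genes that this cell line does not express stay in these denominators, and the share of each family that is expressed was not measured.

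**Figure D1:**
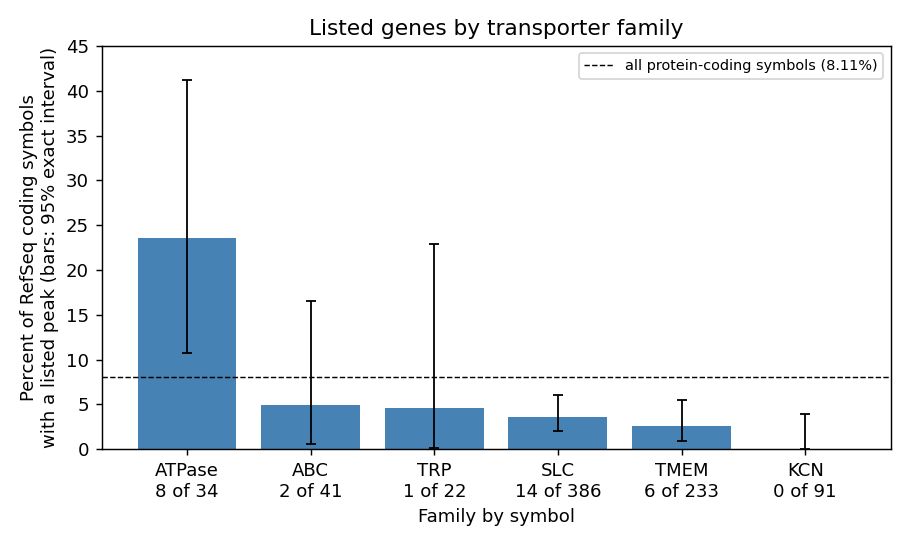
Percent of RefSeq protein-coding symbols with a listed peak (vertical axis) for 6 transporter families (horizontal axis, with counts); bars are shares, whiskers 95% exact binomial intervals that cover counting error only, and the dashed line is the share over all protein-coding symbols. The ATPase family stands at 23.5%, above the line at 8.11%, and the bars of the 5 other families lie below it, with the ABC and TRP whiskers crossing it.

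Added together, the 32 genes counted 1103 tags (Poisson interval 1039 to 1170), or 0.825% of the 133739 tags in all 2440 peaks, although they made up 1.93% of the symbols. The tags were concentrated in few genes. SLC38A1 and ATP2A2 together held 376 tags, or 34.1%, and the 5 genes with the most tags held 52.5%. In 17 of the 32 genes (53.1%) fewer than 20 tags were counted, against 392 of the 1626 other genes (24.1%). A transporter gene had a median of 18 tags and 23.9 tags per kb of peak, against 41.5 tags and 29.95 tags per kb in the other genes. Its median fold was 6.37, against 7.68. Their highest fold was 11.58, against 89.72 among the other genes. Among genes with fewer than 20 tags, median folds were 5.79 in the transporter genes and 5.79 in the other genes, and median densities 22.5 and 23.0 tags per kb.

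**Figure D2:**
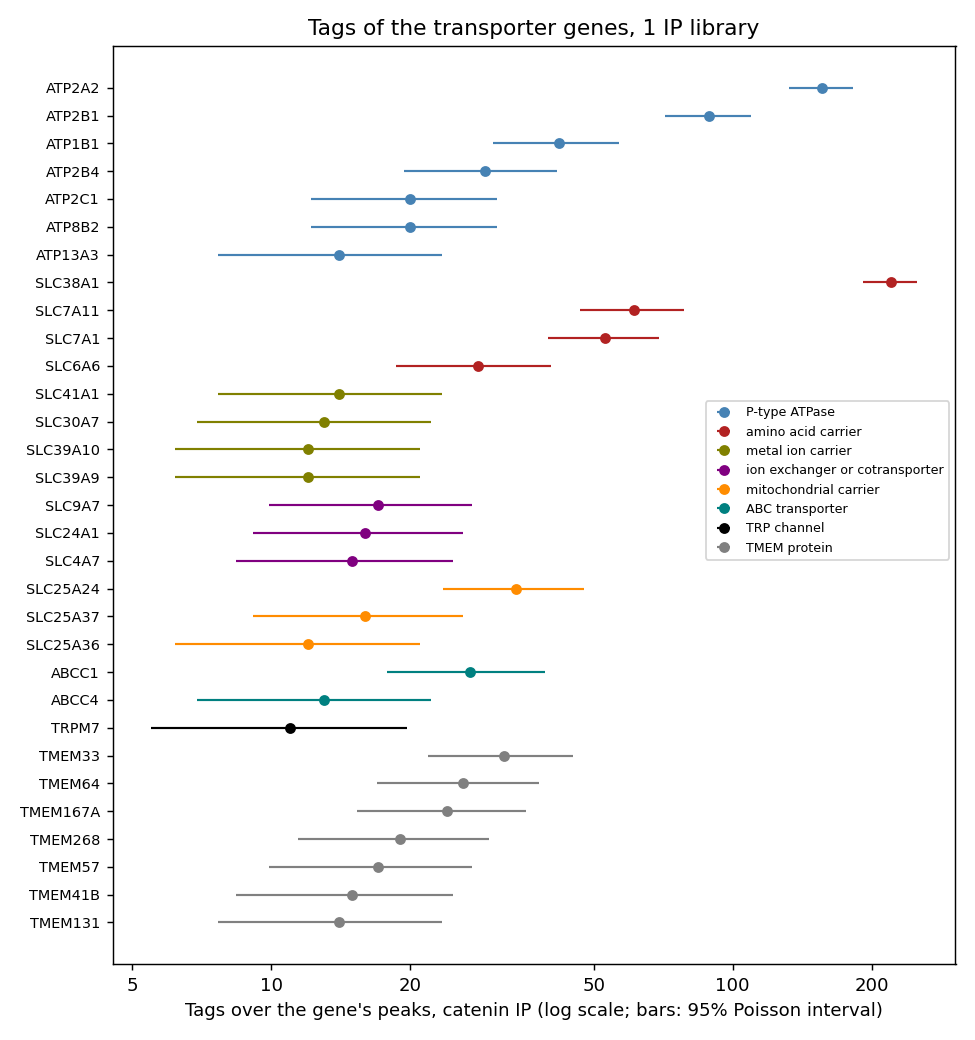
Tags over the peaks of 31 of the 32 transporter genes in the IP library (horizontal axis, log scale), grouped and coloured by role; whiskers are 95% Poisson intervals and cover counting error only. SLC38A1 with 220 tags and ATP2A2 with 156 lie apart from the rest, and the 4 metal ion carriers hold 12 to 14 tags each.

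The deposited positions need the strand to be read. On genes that the RefSeq table puts on the + strand, 40 of 40 peaks labelled 3' untranslated lay after every coding-only peak of their transcript, over all genes where the order could be set. On genes of the - strand 45 of 45 lay before every coding-only peak. If the region labels are right, positions ran from the 5' end on + strand genes and from the 3' end on - strand genes. Whether the labels are right on - strand genes was not tested, since no transcript sequence was used. The transporter genes showed both cases, with ATP2B4 (+ strand) labelled coding at nt 1606 and 3' untranslated at nt 7306, and ATP2B1 (- strand) labelled 3' untranslated at nt 7 and coding at nt 4152. Of the 32 genes 13 were on the + strand, 13 on the - strand, and for 6 the strand table used here had no entry.

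By tags, the calcium pumps ATP2A2 and ATP2B1 led the ATPases. ATP2A2 encodes SERCA2, which pumps calcium from the cytosol into the endoplasmic reticulum. Its single peak held 156 tags (132 to 182) at nt 753 to 2961 of ENST00000308664, entirely in coding sequence, with the summit at nt 2330. At 70.6 tags per kb it was the densest of the 32 genes and ranked 106 of all 1658, while its fold of 8.83 ranked 637. The 3 listed ATP2A2 transcripts held 116 to 156 tags and shared the same fold.

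ATP2B1 encodes a plasma membrane calcium pump, PMCA1, and had 3 peaks, the most of any transporter gene. The peak at nt 7 to 1648 of ENST00000359142 held 49 tags at a fold of 11.58, the highest fold among the 32 genes. The next peak began after a gap of 25 nt, at nt 1674 to 2678, with 27 tags at a fold of 7.22. Both were labelled 3' untranslated. The remaining peak, at nt 4152 to 4618, was labelled coding and held 13 tags at 5.34. Over the 3 peaks ATP2B1 had 89 tags (71.5 to 110) and 28.6 tags per kb, and its 4 listed transcripts held 47 to 89 tags. On 1 of them, ENST00000393164, the peaks were labelled coding (27 tags, fold 7.22) and 3' untranslated and coding (20 tags, fold 6.95). Both the region labels and the highest fold of ATP2B1 therefore depend on the transcript.

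ATP2B4, a paralogous plasma membrane pump (PMCA4), had a coding peak of 14 tags at nt 1606 to 2226 of ENST00000357681 and a 3' untranslated peak of 15 tags at nt 7306 to 7986. Their folds were 5.21 and 6.37. ATP2C1, a calcium and manganese pump of the Golgi apparatus, had 20 tags (12.2 to 30.9) in 1 coding peak at a fold of 4.54. Thus 4 of the 8 listed ATPases were calcium pumps. In 2 of these a 3' untranslated peak was listed beside a coding one on the transcript taken. By symbol, 1 of 3 ATP2A, 2 of 4 ATP2B and 1 of 2 ATP2C genes had a peak, against 8 of all 34 ATPase symbols. With so few genes, these shares have wide counting error. On the transcripts taken, ATP2A2 had more tags than each of the other listed calcium pumps, and its interval did not overlap theirs. By transcript, ATP2B4 held 14 to 29 tags and ATP2C1 12 to 20. The intervals of ATP2B4 and ATP2C1 overlapped each other.

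ATP1B1, the beta subunit that the sodium-potassium pump needs to reach the plasma membrane, had 42 tags (30.3 to 56.8) in a coding peak at nt 539 to 1383 of ENST00000367815. Its fold was 7.87, and its density of 49.7 tags per kb was the second highest of the 32. ATP8B2, a gene of the lipid-flippase class, had 20 tags at a fold of 6.86 in coding sequence. ATP13A3, linked to polyamine transport, had 14 tags at 5.21 in the 3' untranslated region of the transcript taken.

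On the transcripts taken, amino acid carriers held nearly as many tags as the ATPases, 362 (326 to 401) over 4 genes against 382 (345 to 422) over 8. SLC38A1 alone held 60.8% of the carriers' tags. Each of the 4 carrier genes had 2 peaks. Over all 32 transporter genes 26 had 1 peak (81.25%), and of the 1626 other genes 1110 did (68.3%). SLC38A1 encodes SNAT1, a sodium-coupled carrier of glutamine and other neutral amino acids. On the transcript taken, its 220 tags (192 to 251) were the most of any transporter gene and ranked 112 of 1658. They lay in neighbouring long peaks of ENST00000398637, with 129 tags at nt 324 to 3097 and 91 tags at nt 3239 to 5971. The folds of these peaks were only 4.16 and 5.57, and by fold the gene ranked 1341 of 1658. SLC38A1 was thus high in tags and low in fold, while ATP2B1 had fewer tags and the higher fold. The other 2 SLC38A1 transcripts listed had 1 peak each, of 125 and 109 tags at a fold of 4.16, so on either of them the gene would stand below the 156 tags of ATP2A2. The sum of the amino acid carriers would then be lower too.

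SLC7A11 encodes xCT, the cystine-glutamate exchanger that supplies cystine for glutathione synthesis. Its peak at nt 1605 to 2953 of ENST00000280612 held 49 tags at a fold of 10.42, and a smaller peak at nt 9 to 590 held 12 at 4.63. Both were labelled 3' untranslated, and the gene's sum was 61 tags (46.7 to 78.4). SLC3A2, the heavy chain with which xCT pairs, had no listed peak (this gene was looked up after the values were seen). SLC7A1 encodes CAT1, a carrier of arginine and other cationic amino acids. It had 22 tags at nt 657 to 1567 of ENST00000380752, at a fold of 8.68, and 31 tags at nt 4454 to 5488, at 6.62. Here the peak with fewer tags had the higher fold. SLC6A6, the taurine transporter, had 3' untranslated peaks of 16 and 12 tags, both at a fold of 5.21.

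**Figure D3:**
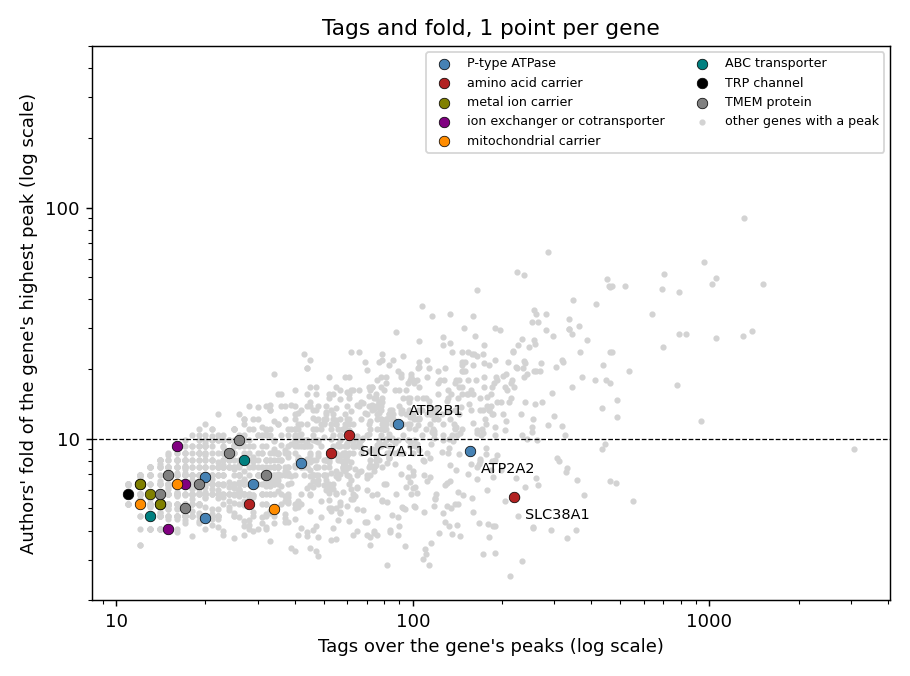
Tags over a gene's peaks (horizontal axis, log scale) against the authors' fold of its highest peak (vertical axis, log scale), with 1 point per gene: 31 of the transporter genes coloured by role, other genes with a peak in grey, and a dashed line at a fold of 10. Most transporter genes sit at low tags and low fold, ATP2B1 at 11.58 and SLC7A11 at 10.42 pass the line, and SLC38A1 lies at many tags and a fold of 5.57.

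The carriers of metal ions had few tags each, 51 in all (37.97 to 67.1) over 4 genes with 1 peak apiece. SLC39A9 and SLC39A10 are ZIP-type zinc importers, and each had 12 tags at a fold of 6.37. SLC30A7, which loads zinc into the Golgi apparatus, had 13 tags at 5.79, and SLC41A1, a magnesium transporter, had 14 at 5.21. The interval of each contained the counts of the other 3, so their order is within counting error. SLC39A10 alone was labelled coding, and the peaks of the others were labelled 3' untranslated.

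Ion exchangers and cotransporters had 48 tags over 3 genes. SLC9A7, a sodium-proton exchanger of the trans-Golgi network, had 17 tags at a fold of 6.37. SLC24A1, a sodium-calcium-potassium exchanger best known from retinal rods, had 16 tags in a peak of only 433 nt, the shortest of the 39, with 37.0 tags per kb and a fold of 9.26. SLC4A7, a sodium-bicarbonate cotransporter that regulates intracellular pH, had 15 tags at a fold of 4.05, the lowest among the 32. SLC4A7 was listed on 10 transcripts with 13 to 15 tags each. The same stretch was labelled 3' untranslated on 3 of them and coding on 7, so its region depends on the transcript.

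Mitochondrial carriers of the SLC25 family sit mostly in the inner mitochondrial membrane. SLC25A24, which exchanges ATP-magnesium for phosphate, led them with 34 tags (23.5 to 47.5), 36.2 tags per kb and a fold of 4.98. SLC25A37, the iron carrier mitoferrin-1, had 16 tags at 6.37, and SLC25A36, a pyrimidine nucleotide carrier, had 12 at 5.21. Of 48 protein-coding SLC25 symbols these 3 were listed, where 14 of all 386 solute carrier symbols were.

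Both listed ABC transporters belong to the ABCC family of organic anion and drug exporters. ABCC1 (MRP1) had 27 tags (17.8 to 39.3) at nt 4102 to 5264 of ENST00000399408, labelled 3' untranslated and coding, at a fold of 8.10. ABCC4 (MRP4), which also exports cyclic nucleotides, had 13 tags (6.92 to 22.2) in coding sequence at 4.63. Their intervals overlapped. The only channel of the set, TRPM7, a magnesium- and calcium-permeable channel fused to a kinase, had 11 tags (5.49 to 19.7) at a fold of 5.79. No peak in the table held fewer tags than that.

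The 7 TMEM-named genes are not all transporters, and none carried the transporter activity term that the authors had joined to the table. They held 147 tags (124 to 173). TMEM33, an endoplasmic reticulum protein, had 32 tags at a fold of 6.95. TMEM64 had 26 tags at 9.84, the third highest fold of the 32 genes, and TMEM167A, a small Golgi protein, had 24 at 8.68. TMEM268 followed with 19 tags, TMEM57 (macoilin) with 17, TMEM41B, a lipid scramblase of the endoplasmic reticulum, with 15, and TMEM131, known for a role in collagen secretion, with 14. Peaks of 5 of the 7 were labelled 3' untranslated. In all, 23 of the 32 genes carried the transporter activity term. ATP8B2 was also without it.

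By region, the 3' untranslated label took a larger share of the transporter peaks than of the peaks of other genes. The label for that region alone was given to 23 of 39 transporter peaks, or 59.0% (exact binomial interval 42.1 to 74.4%), against 664 of 2401 other peaks, or 27.7% (25.9 to 29.5%). Coding sequence alone was given to 12, or 30.8% (17.0 to 47.6%), against 957 of the other peaks, or 39.9% (37.9 to 41.8%). A further 4 transporter peaks (10.3%), on SLC38A1, SLC7A1, ABCC1 and SLC25A36, were labelled 3' untranslated and coding. Among the other peaks 477 (19.9%) had that mixed label, and 56 (2.33%) were labelled 3' and 5' untranslated. With the mixed labels counted in, the difference in 3' untranslated labels is therefore smaller. Median peak length was 712 nt in transporter genes and 942 nt in other genes, and its part in the labels was not tested. On the transcripts taken, 0 of the 39 transporter peaks had a label with a 5' untranslated part (exact interval up to 9.03%), against 277 of the 2401 other peaks, or 11.5% (10.3 to 12.9%). On the 2 other SLC38A1 transcripts the peak was labelled 3' and 5' untranslated, so this absence depends on the transcript. Counted by gene, 20 of the 32 (62.5%, interval 43.7 to 78.9%) had at least 1 peak labelled 3' untranslated alone, where 33.0% of all 1658 genes did. These genes were unevenly split by strand, with 5 of the 13 + strand genes and 10 of the 13 - strand genes. The rest had no strand entry. The same split is not given here for the other genes, and the part of strand in the difference was not tested.

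The share was also taken at low and at higher tag counts. Among genes with fewer than 20 tags, 10 of 17 transporter peaks (58.8%, interval 32.9 to 81.6%) and 123 of 392 other peaks (31.4%, 26.8 to 36.2%) were labelled 3' untranslated alone, and these intervals overlap. With 20 tags or more, the shares were 13 of 22 (59.1%, 36.4 to 79.3%) and 541 of 2009 (26.9%, interval up to 28.9%), with intervals that do not overlap. Without the TMEM-named genes the transporter share was 18 of 32 peaks (56.2%, 37.7 to 73.6%). The 35 other genes with the transporter activity term, led by nuclear import and export factors such as KPNB1, had the label in 13 of 43 peaks. That is 30.2% (17.2 to 46.1%), an interval that overlaps the 42.1 to 74.4% of all 39 transporter peaks. The 330 other genes with the plasma membrane term had it in 132 of 506 (26.1%, 22.3 to 30.1%). The intervals cover counting error only, peaks of a gene are not independent, and with 1 library no test of the difference was made. The lengths of the untranslated regions were not used here, so their part in the difference was not tested.

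**Figure D4:**
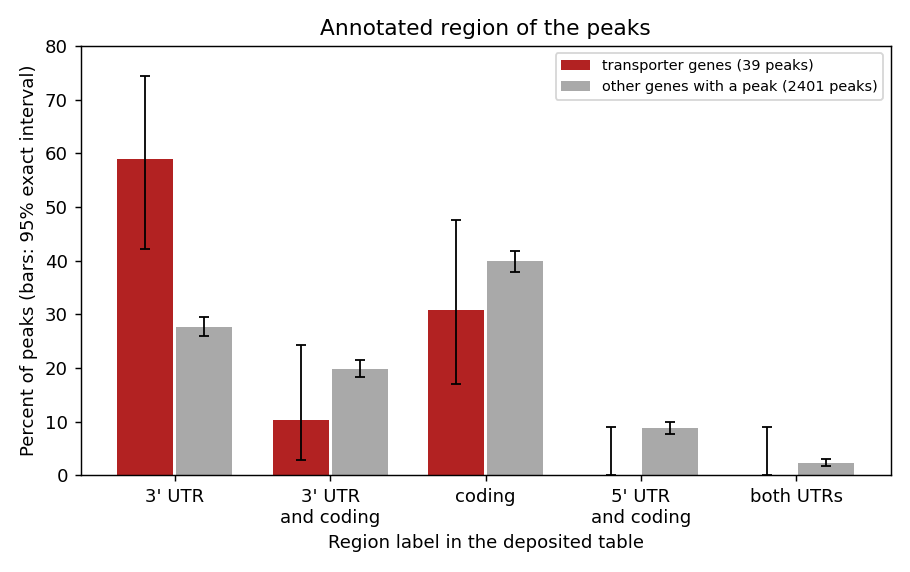
Percent of peaks (vertical axis) by region label of the deposited table (horizontal axis), for transporter genes in red and other genes with a peak in grey; whiskers are 95% exact binomial intervals. The 3' untranslated label stands at 59.0% of transporter peaks against 27.7% of other peaks, and on the transcripts taken no transporter peak carries a label with a 5' untranslated part.

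By role, the region labels were divided as follows. All 4 amino acid carriers had a 3' untranslated peak, with 6 of their 8 peaks labelled so and none labelled coding alone. Among the ATPases 6 of 11 peaks were coding, with 265 of their 382 tags, most of them on ATP2A2. These groups hold few genes each, and the values describe them only.

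The positions that follow are read by strand and take the region labels of - strand genes as right. The 3' untranslated peaks of the 10 - strand genes that had one began at positions 7 to 6503 counted from the 3' end. Their median was 657 over 11 peaks. The ATP2B1 peak at a fold of 11.58 began at position 7. On this reading, the long SLC38A1 peaks covered 5507 of the last 5971 nt of its transcript, beginning at position 324. The peaks of SLC25A24 (position 301), SLC41A1 (326) and TRPM7 (582) also began within the last kilobase. SLC9A7, at 6503, was the farthest. For SLC7A11, SLC6A6, ABCC1, SLC25A37 and TMEM64, the direction of the positions was not set here.

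**Figure D5:**
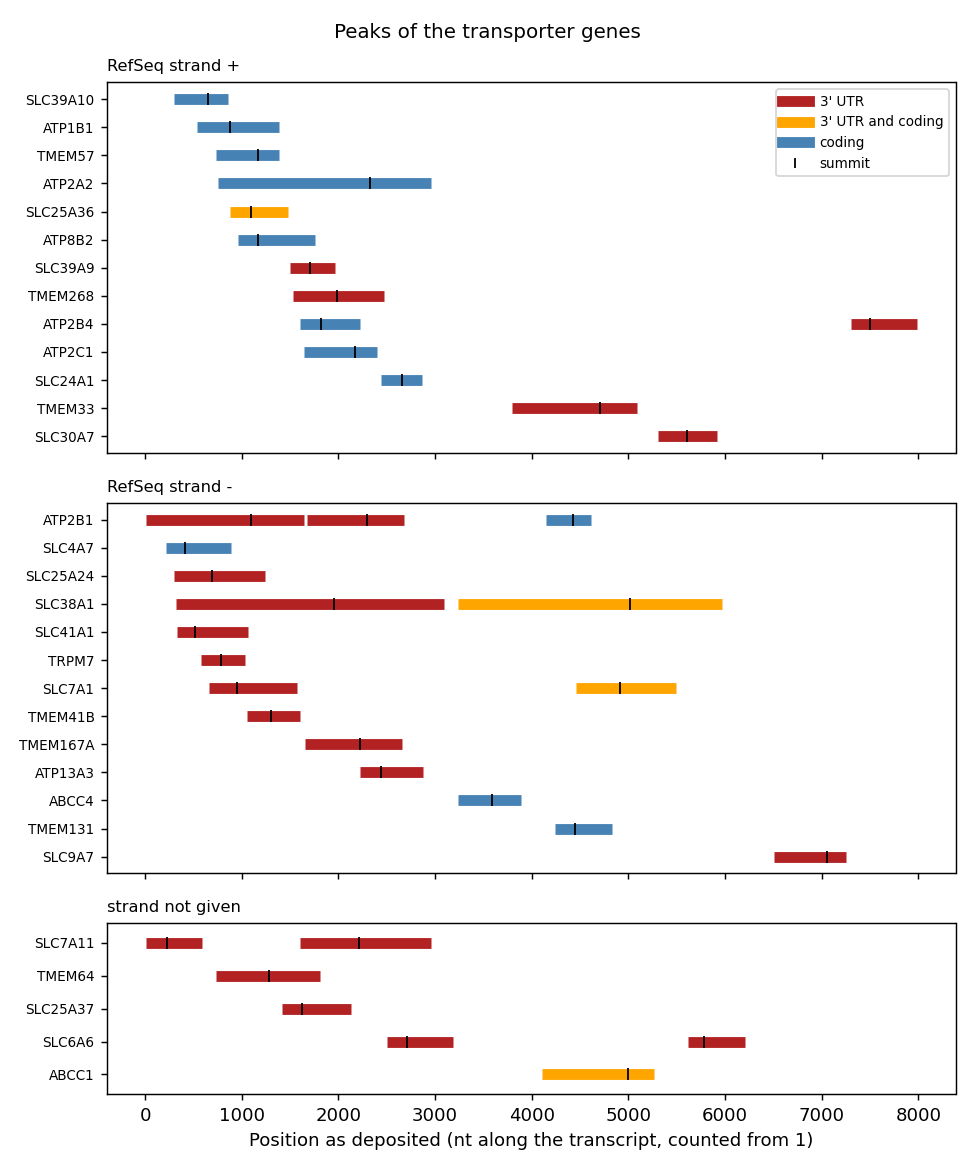
Peaks of 31 of the 32 transporter genes along their transcripts (horizontal axis, nt as deposited), 1 line per gene, in panels by RefSeq strand; bars are peaks coloured by region label and ticks are summits. On the + strand the 3' untranslated peak of ATP2B4 lies to the right of its coding peak, and on the - strand those of ATP2B1 lie to the left of its coding peak, from nt 7.

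Few transporter genes stood high by the authors' own measures. A fold of at least 10 was reached by 2 of the 32, ATP2B1 and SLC7A11, against 30.3% of all genes with a peak. A score of at least 100, the score being an unnamed column of the authors with a minimum of 30, was reached by 4 (ATP2A2, SLC7A11, ATP2B1 and SLC38A1), or 12.5%, against 39.4% of all genes. Just below a fold of 10 lay TMEM64 at 9.84 and SLC24A1 at 9.26. Folds took stepwise values, whole multiples of 0.579 with a tolerance of 0.0051, in 28 of the 39 transporter peaks (71.8%) and in 1682 of 2401 other peaks (70.1%). Ties are therefore common, with 6 of the transporter genes at a fold of 6.37. The peaks of SLC38A1, ATP2A2, ATP1B1 and SLC25A24 were off these steps, and those of SLC7A11 were on them.

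By the KEGG pathways that the authors had joined to the table, 10 of the 32 genes were annotated. The cAMP signaling pathway held 5 (ABCC4, ATP1B1, ATP2A2, ATP2B1 and ATP2B4) of its 17 genes with a peak. The calcium signaling pathway held the calcium pumps ATP2A2, ATP2B1 and ATP2B4 among 14. Smaller pathways held larger shares, with 4 of 7 in pancreatic secretion and in adrenergic signaling in cardiomyocytes, and 3 of 3 in mineral absorption. The first 2 of these held the same 4 genes, ATP1B1, ATP2A2, ATP2B1 and ATP2B4. The genes were chosen as transporters, so their shares in pathways of ion transport are not read as a result. The 32 genes were 1.93% of all symbols with a peak, and how many of those symbols were annotated is not given here.

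Genes that work beside these transporters but do not match their symbols were looked at as lists. For comparison, 8.11% of all protein-coding symbols had a peak. The lists were drawn up with earlier results of these data known, so a share above 8.11% cannot count as enrichment. Of 40 regulators and partners of transporters 9 had one (22.5%, interval 10.8 to 38.5%), with a median fold of 8.39 and a median of 46 tags. WNK1, a kinase that senses chloride and osmotic stress, led with 268 tags (237 to 302) over 4 peaks at a fold of 19.68. OXSR1 and STK39, the kinases through which WNK proteins control cation-chloride cotransporters, had 46 and 31 tags at folds of 12.24 and 6.34. No gene of that SLC12 cotransporter family was listed. Only 3.63% of all solute carrier symbols were, so this absence is not read as a result about the family. HIF1A had 172 tags at 3.17, and the ubiquitin ligases NEDD4L and NEDD4, which act on channels and carriers, had 75 and 71 at 8.39 and 10.46. Of 72 ion channel genes outside the rule 6 had a peak (8.33%, near the share over all symbols), led by ITPR3, an endoplasmic reticulum calcium release channel (102 tags, fold 11), VDAC1, the mitochondrial outer membrane channel (74 tags, 3.92), and ANO6, a calcium-activated lipid scramblase and channel (31 tags, 5.79). Of 29 other ATP-driven transporters and their kin 2 were listed (6.90%, interval 0.846 to 22.8%), ABCF1, a member of the ABC family without a membrane domain (113 tags, 20.13), and ATP6V0A2, a proton pump subunit (47 tags, 12.08). Of 43 other solute transporter genes 2 were listed (4.65%, 0.568 to 15.8%), LETM1, a mitochondrial inner membrane protein (104 tags, 11.49), and the transferrin receptor TFRC (48 tags, 8.45).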

How the data were processed

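RNA of a catenin IP and an input, 1 library each, was sequenced from MDA-MB-231 cells. The table used here is the IP library's peak list, and the submitters' processing notes name the build hg18. For aligner, peak caller, annotation and background library the sources used here give no name. The tag count of each peak is a whole number as deposited, the fold is the ratio the authors deposited per peak, and the score is a deposited column whose name was lost, per the file headers. Fold and score are the authors' own and only describe, rank or filter peaks. For each symbol the transcript with the highest tag sum was taken (ties: lowest identifier). Tags per kb are tags divided by summed peak length. With 1 library per group no test was possible.

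Poisson and Clopper-Pearson intervals are at 95% and cover counting error only, and tags counted without molecular identifiers need not be separate molecules. Of the 32 symbols 31 matched the RefSeq table (GRCh38.p14) directly and 1 under an older symbol. That table gave names, biotypes and, through its promoter entries, strand, but no coordinates. Of the SLC, ABC, ATPase and TRP members all but 1, whose own values are not reported here, were named, with full values for those highest in tags, density or fold. Members, roles and lists were chosen with earlier results of these data known. The symbol match, the choice of transcript and the search for the step of the folds were tested on simulated data, and the other procedures were not. Software was Python 3.11.15, pandas 2.3.3, numpy 2.4.6 and scipy 1.17.1.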

Additional observations from a re-analysis of the deposited data

How the results depend on the processing

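No paired analysis was possible because the IP and the input are single libraries. Of 33 values under alternatives, 27 stayed within 1.5 times the reported value or, for shares, within its interval, and 6 moved further. The alternative of a fold of at least 4 removed no transporter peak, since the lowest fold was 4.05. Its values, counted among the 27, could not move. A score of at least 50 left 13 of the 32 genes, where it left 1173 of the 1626 other genes. A score of at least 100 left 4, against 39.4% of all genes with a peak. Those 4 had 345 tags and a median fold of 9.62, since fewer peaks enter by construction. A fold of at least 8 was reached by 8 genes and a fold of at least 15 by 0. The shares of all genes at these folds are not given here, so these counts are not read as a result about the transporters. The share of peaks labelled 3' untranslated alone was 47.6% with each transcript on its own (19.6% in other genes) and 56.2% at a score of at least 50 (24.5% in other genes); these alternatives were chosen after seeing the data. The library depth is unknown, and counting error limits most genes: the median transporter gene has 18 tags.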

Other observations

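Over the whole table, the labels and the strand went together in other ways too. Peaks labelled 3' untranslated and coding lay after every coding-only peak in 38 of 38 comparisons on + strand genes and before in 77 of 77 on - strand genes. Those labelled 5' untranslated and coding lay before in 31 of 31 on + strand genes and after in 2 of 2 on - strand genes. Of the peaks that began within the first 50 nt, 46 of 54 on + strand genes had a label with a 5' untranslated part, against 0 of 58 on - strand genes, where 57 had a 3' untranslated label. The strand came from RefSeq and was known for 1391 of the 1658 symbols.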
